A study of Mus musculus with 9 samples.

Results

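A set of 8 transcription factor genes of the chondrocyte lineage was followed in RNA-seq of the E14.5 mouse skull, namely Sox5, Sox6, Sox8, Sox9, Foxa2, Foxa3, Nkx3-2 and Trps1. They were taken by gene symbol from the expression table, where they were 8 of 43548 gene identifiers. The series held 9 libraries in 3 groups of 3, each library made from the RNA of 3 pooled tissue samples, so that a group represented 9 tissue samples. The groups were the cranial vault of MCAGF8 embryos and, from control embryos, the vault and the cartilaginous cranial base.

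MCAGF8 embryos, labelled Msx2Cre; CAGFgf8 mutant, carried an Msx2-Cre transgene together with a conditional allele from which Cre releases strong expression of Fgf8b. Msx2-Cre is active in the surface ectoderm of the head and not in the mesenchyme beneath it, and the skin was peeled from the vault before the tissue was taken. The controls, labelled wildtype, lacked Cre but carried the same allele in its silent state, and all embryos were of a mixed strain. Vault and base were both collected from control embryos, and it was not stated which vault and base pools shared embryos. Levels are given in FPKM, a unit of fragments mapped to a gene corrected for library size and transcript length, so that levels of different genes can be set side by side. The number of reads per library was not given in the sources used here, so the depth behind each value is unknown.

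Sox9 encodes the SOXE factor that commits mesenchymal cells to the chondrocyte fate, and it directs the genes of the cartilage matrix together with the closely related SOXD factors encoded by Sox5 and Sox6. Sox8 encodes another SOXE factor, found in cartilage, glia and other tissues. Nkx3-2 encodes a homeodomain repressor that holds early chondrocytes in their state, Foxa2 and Foxa3 encode forkhead factors that act later, when chondrocytes enlarge and begin to make type X collagen, and Trps1 encodes a zinc finger repressor of the growth plate. Most of the cranial vault forms bone without a cartilage template, whereas the cranial base ossifies through cartilage.

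The groups were first set against the genes that mark cartilage. Col2a1, the main collagen of cartilage, was present at 373, 462 and 421 FPKM in control vault replicates 1, 2 and 3, at 583, 1146 and 1114 in the MCAGF8 vault, and at 163, 2292 and 268 in the control base. Acan, the main cartilage proteoglycan, was lower in base replicates 1 and 3 (12.7 and 26.5 FPKM) than in every vault library, and highest in base replicate 2 (241 FPKM). Thus 2 of the 3 libraries labelled as cartilaginous base held less of these cartilage transcripts than the control vault did. Col10a1, the collagen of enlarged chondrocytes, nevertheless set all 3 base libraries apart, with 115, 658 and 74.2 FPKM against at most 2.05 FPKM in any vault library. Base replicate 2 was also the library least like its group (r of 0.904 and 0.927 across genes with replicates 1 and 3, where the libraries within either vault group reached at least 0.959), and the differences of the 8 factors from the base are therefore given with and without it. It held less RNA of 10 skeletal muscle genes (1964 summed FPKM, against 12300 and 5204 in base replicates 1 and 3) and of 8 epidermal genes (64.9, against 492 and 678). Base replicate 2 was also the lowest base library for brain neuron genes (287, against 426 and 975) and erythroid genes (5028, against 10870 and 9173). The same held for macrophage genes (115.5, against 261.7 and 224.7) and for foregut, airway and pituitary epithelium genes (97.4, against 165 and 232). Its osteoblast, endothelial, neural progenitor and glial sums lay between those of replicates 1 and 3. Fits without it thus compare with the 2 libraries lowest in Col2a1 and Acan, not with the base library richest in cartilage transcripts.

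Fgf8, the gene carried by the conditional allele, measured 13.5, 8.25 and 3.01 FPKM in the control vault, 19.5, 9.43 and 13.03 FPKM in the MCAGF8 vault and 3.78, 17.4 and 5.82 FPKM in the control base, so the groups overlapped. Markers of other tissues varied as well. The summed FPKM of 10 skeletal muscle genes ran from 54.5 to 290 in the MCAGF8 vault, from 1072 to 6590 in the control vault and from 1964 to 12300 in the base. Of 2 notochord genes, Noto was at 0 in every library, and T (brachyury) measured 0.593 to 0.979 FPKM in the base, 0.234 to 0.939 in the MCAGF8 vault and 0.205 to 0.285 in the control vault, so that base and control vault did not overlap, as for Foxa2. In bulk tissue such as this, fewer cells of a type and less RNA per cell cannot be told apart.

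Differences were tested with limma on log2(FPKM + 1) across the 18714 genes whose mean over all 9 libraries was at least 0.5 FPKM. All 8 factors passed this filter, Foxa2 only through the base. Its mean there was 3.39 FPKM, against 0.270 in the control vault and 0.690 in the MCAGF8 vault. The results of Foxa2 against the base are therefore not independent of the filter. A gene was called when its unadjusted p was below 0.05 and its adjusted p below 0.1. The MCAGF8 and control vaults differed in none of the 8 genes by this rule, where 0.604% of all genes were called. At the unadjusted threshold alone 1 of the 8 passed, Sox9, against 6.34% of all genes. Between the MCAGF8 vault and the base 3 of the 8 were called, all lower in the MCAGF8 vault (Foxa2, Nkx3-2 and Sox8), against 8.39% of all genes. For the base against the control vault 2 of the 8 were called, both higher in the base (Foxa2 and Nkx3-2), against 3.06% of all genes. The corresponding shares of all genes at the unadjusted threshold were 19.6% and 12.8%, where 4 and 3 of the 8 passed. The last pair of comparisons share the base libraries, and each shares a vault group with the first.

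**Figure D1:**
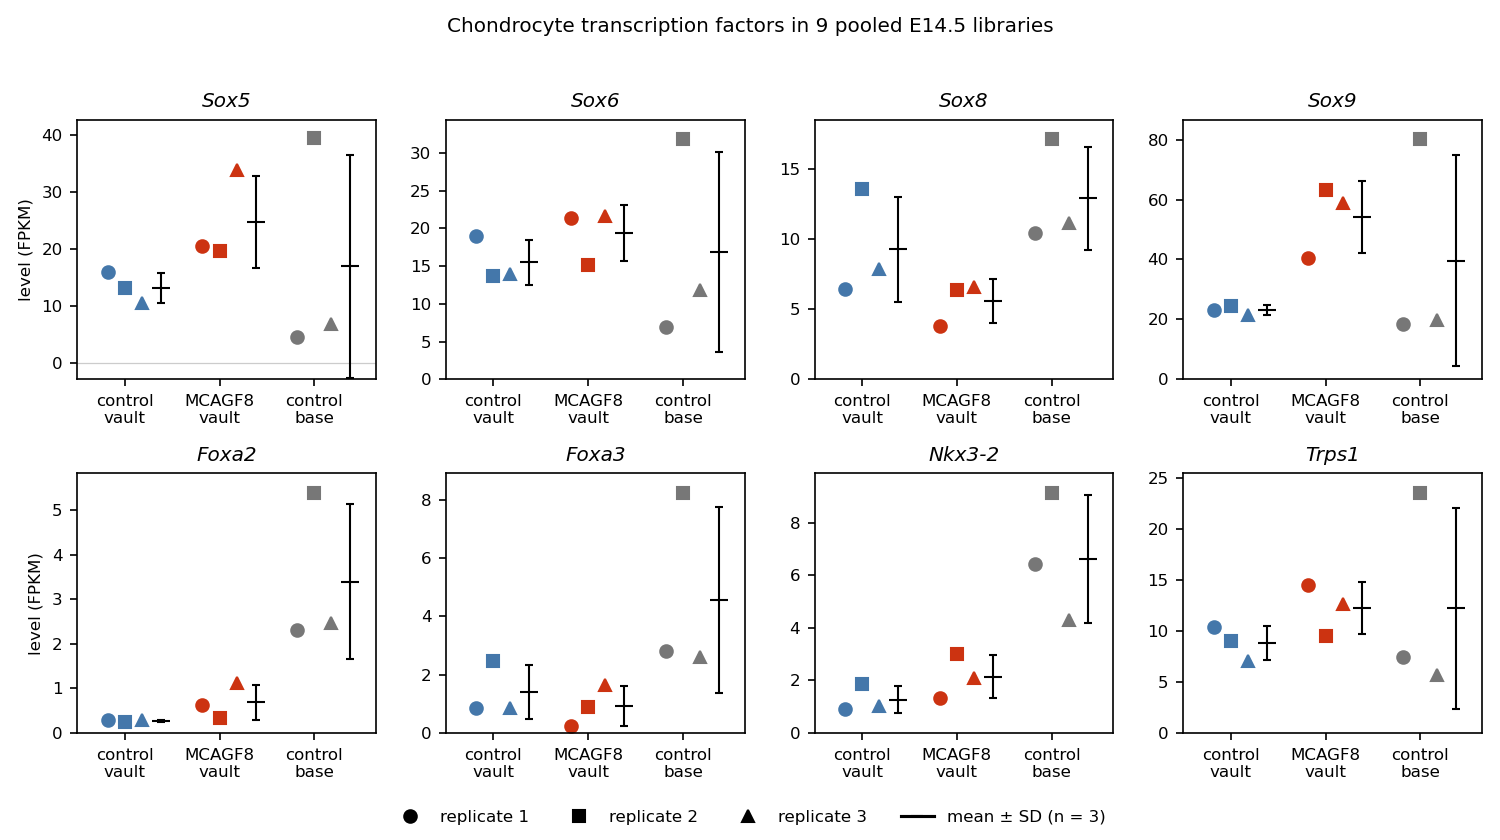
Level of each of the 8 factors in FPKM (linear axis, 1 panel per gene) in each of the 9 libraries, with the replicate number shown by the symbol and the group mean ± SD (n = 3) as a black bar beside the points. Base replicate 2 (grey square) is the highest library in all 8 panels, at 80.3 FPKM for Sox9, and the 3 MCAGF8 libraries lie above the 3 control vault libraries for Sox5, Sox9 and Foxa2.

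Sox9 was the most abundant of the 8 genes in every group. It measured 23.2, 24.6 and 21.3 FPKM in the control vault and 40.3, 63.1 and 58.9 FPKM in the MCAGF8 vault, so that each MCAGF8 library exceeded each control vault library. The means were 54.1 ± 12.1 and 23.0 ± 1.63 FPKM (SD, n = 3 each), a ratio of 2.35, and in the MCAGF8 vault Sox9 stood above 81.8% of the genes tested, compared with 62.5% for the control group. The log2 difference was 1.17 (SE 0.47, 95% confidence interval 0.11 to 2.24) with an unadjusted p of 0.0337 and an adjusted p of 0.684 by limma, and Sox9 was therefore not called.

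That result turned on a library of the other tissue. In the base Sox9 measured 18.5, 80.3 and 20.0 FPKM in replicates 1, 2 and 3, and the wide spread of this group entered the error shared by all comparisons. Without base replicate 2 the difference between the vaults was the same 1.17, its SE fell to 0.19 and the adjusted p to 0.0446, so that Sox9 was called. It was also called when only the 6 vault libraries were fitted (adjusted p = 0.0832), and over all 19 alternatives its adjusted p ranged from 0.0446 to 1 and its log2 difference from 1.05 to 1.37. Epidermal markers differed between the vaults too: the summed FPKM of 8 epidermal genes was 386 to 1002 in the MCAGF8 vault, with all 8 above 1 FPKM in every library, and 14.1 to 103 in the control vault. In base replicates 1, 2 and 3 it was 492, 64.9 and 678, and so lowest in the base library with the most Sox9. The part of epidermal transcripts in the Sox9 values was not tested.

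Against the base, Sox9 was lower in the MCAGF8 vault than in base replicate 2 and higher than in base replicates 1 and 3. The log2 difference was 0.75 (95% confidence interval -0.31 to 1.82, adjusted p = 0.423). Without base replicate 2 it was 1.42 (0.94 to 1.91, adjusted p = 0.00601), and Sox9 was called. Base and control vault differed by 0.42 (-0.64 to 1.48, adjusted p = 0.866), which became -0.25 without base replicate 2. Sox9 lies on mouse chromosome 11 from 112782224 to 112787760 on the plus strand (GRCm38, GENCODE M21), with 4135 exonic bases.

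Sox8 ran the other way. This second SOXE gene measured 6.42, 13.5 and 7.85 FPKM in the control vault, 3.77, 6.36 and 6.62 FPKM in the MCAGF8 vault and 10.5, 17.1 and 11.1 FPKM in the base. Every base library exceeded every MCAGF8 library, whereas control vault replicate 1 fell within the MCAGF8 range. Sox8 was lower in the MCAGF8 vault than in the base by -1.08 on the log2 scale (SE 0.32, adjusted p = 0.0935), with mean levels of 5.58 ± 1.57 and 12.9 ± 3.68 FPKM (SD, n = 3 each).

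The call of Sox8 lay close to the threshold. It was lost on leaving out any single library other than control vault replicate 2, with adjusted p between 0.0827 and 0.329 over these fits (0.112 without base replicate 2), and the log2 difference stayed between -1.20 and -0.86. Between the vaults the difference was -0.61 (95% confidence interval -1.33 to 0.10, adjusted p = 0.897), and between the base and control vault 0.47 (-0.25 to 1.18, adjusted p = 0.67), or 0.26 (adjusted p = 0.704) without base replicate 2. The summed FPKM of 6 Schwann cell and glial crest genes followed a like order, with 56.5 to 157 in the base, 23.1 to 32.6 in the control vault and 11.2 to 21.8 in the MCAGF8 vault, none of the 6 being at 0 in any library, and their part in the Sox8 values was not tested. Sox8 occupies chromosome 17 from 25565892 to 25570686 on the minus strand, and its exons overlap those of the antisense gene 2810468N07Rik, which averaged 4.50 FPKM here. Since the strand setting of the counting was not stated, reads of this pair may not have been separated.

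The balance between Sox9 and Sox8 separated the MCAGF8 vault from both control tissues. The ratio of Sox9 to Sox8, taken within each library, was 10.7, 9.93 and 8.90 in the MCAGF8 vault. It was 3.61, 1.82 and 2.72 in the control vault and 1.77, 4.68 and 1.79 in the base. No control library reached the lowest MCAGF8 value. This ratio was chosen after the values of both genes had been seen, and it is given as a description without a test. The SOXE gene Sox10 is not part of the ratio, and the limits given above for Sox8 apply to the ratio as well.

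**Figure D2:**
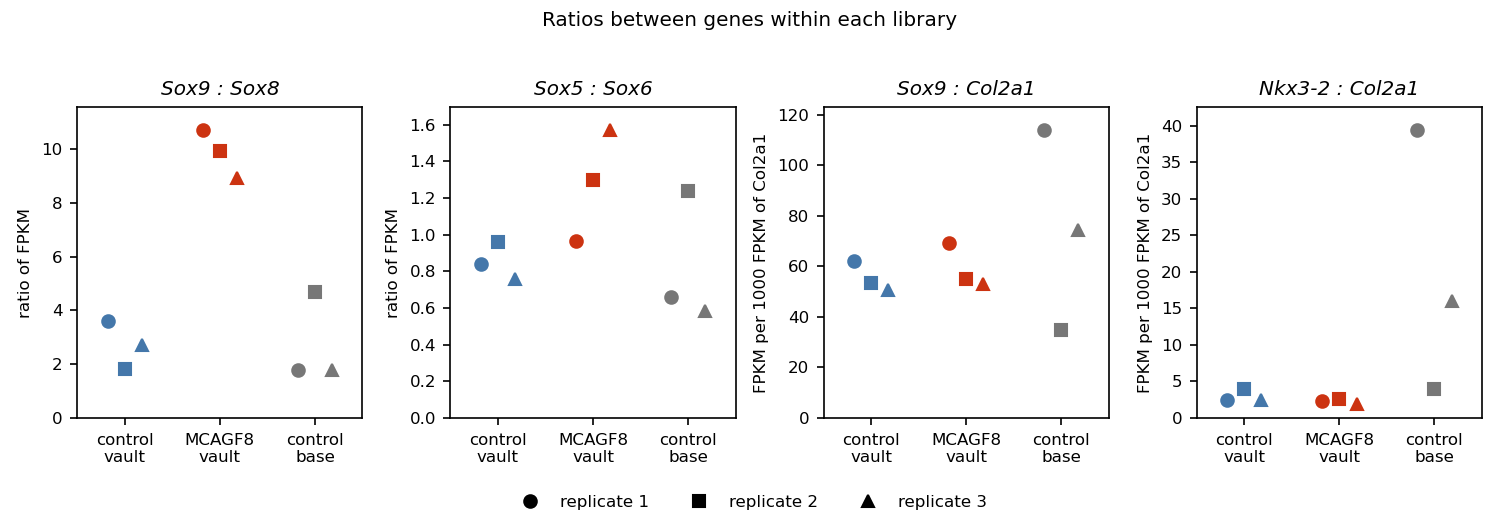
Ratio of levels between pairs of genes within each library (linear axes from 0), with Sox9 and Nkx3-2 in the right-hand panels given per 1000 FPKM of Col2a1 and the replicate number shown by the symbol. The ratio of Sox9 to Sox8 lies between 8.90 and 10.7 in the MCAGF8 vault and does not exceed 4.68 in any control library, while Sox9 per 1000 FPKM of Col2a1 overlaps among the groups.

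Sox9 was also set against Col2a1, a gene it is known to activate. The control vault held 62.2, 53.3 and 50.7 FPKM of Sox9 per 1000 FPKM of Col2a1, and the MCAGF8 vault 69.2, 55.1 and 52.9, so these ranges overlapped. The base libraries spread more widely, with 114, 35.0 and 74.4. The highest of these values came from base replicate 1, which had the lowest Col2a1 level of the 9 libraries, and the lowest from base replicate 2, which had the highest.

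The SOXD genes Sox5 and Sox6, partners of Sox9 at cartilage genes, were both above 10 FPKM in every vault library. Sox5 measured 15.9, 13.1 and 10.5 FPKM in the control vault, 20.6, 19.7 and 34.0 in the MCAGF8 vault and 4.59, 39.5 and 6.87 in the base. Its vault groups did not overlap, with means of 13.2 ± 2.71 FPKM in the control and 24.8 ± 7.98 FPKM in the MCAGF8 vault (SD, n = 3 each). The log2 difference between them was 0.83 (SE 0.62, 95% confidence interval -0.56 to 2.23, adjusted p = 0.969), and Sox5 was not called there in any alternative (adjusted p from 0.247 to 1).

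Sox6 measured 19.0, 13.7 and 13.9 FPKM in the control vault, 21.4, 15.1 and 21.7 in the MCAGF8 vault and 6.93, 31.9 and 11.8 in the base. Here MCAGF8 replicate 2 fell within the control vault range. The difference between the vaults was 0.30 on the log2 scale (-0.69 to 1.29, adjusted p = 0.976). The ratio of Sox5 to Sox6 was 0.963, 1.30 and 1.57 in the MCAGF8 vault and 0.840, 0.957 and 0.756 in the control vault, so that the lowest MCAGF8 value just exceeded the highest control vault value. In the base it was 0.662, 1.24 and 0.582.

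For both SOXD genes the comparison with the base depended on base replicate 2. With all 9 libraries the MCAGF8 vault exceeded the base by 1.04 (95% confidence interval -0.35 to 2.44, adjusted p = 0.392) for Sox5 and by 0.43 (-0.56 to 1.42, adjusted p = 0.646) for Sox6. Without base replicate 2 these differences were 1.92 (1.23 to 2.60, adjusted p = 0.00694) and 1.00 (0.37 to 1.64, adjusted p = 0.0435), and both genes were called as higher in the MCAGF8 vault. Base replicate 2 held 6.90 times as much Sox5 and 3.40 times as much Sox6 as the mean of base replicates 1 and 3. Relative to the control vault the differences in the base were -0.21 for Sox5 and -0.13 for Sox6 (adjusted p of 0.972 and 0.978). Leaving it out, Sox5 was called as lower in the base (-1.08, adjusted p = 0.0932), and Sox6 was at -0.70 (adjusted p = 0.205).

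Both genes are long, with 14376 exonic bases for Sox5 and 14832 for Sox6. Base replicate 1 had the steepest trend of level with exonic length among the libraries, at -0.213 log2 units per doubling of length. With that trend removed from each library, Sox5 exceeded the base by 0.93 and Sox6 by 0.32 in the MCAGF8 vault, and neither was called (adjusted p of 0.268 and 0.532). Neither had been called with all 9 libraries before the removal. The trend was not removed in the fit without base replicate 2, in which both were called. Sox5 spans chromosome 6 from 143828425 to 144781977 and Sox6 chromosome 7 from 115470872 to 116038796, both on the minus strand.

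Promoter windows of 250 bases before each RefSeq start (GRCm38.p6) were read for the 6 factors in the promoter table, which had 13 starts. They were searched on both strands for ACAAAG, the core letters bound by SOX proteins, whose reverse complement is CTTTGT. A match stood in 6 of the 13 windows, and 5408 of all 32851 promoter windows (16.5%) held one. Of the 6 windows, 5 belonged to Sox6, which has 6 starts, and 1 to Foxa2, which has 3, while Sox5, Sox8, Foxa3 and Nkx3-2 had 1 start each and no match. The Sox6 windows held between 34.0% and 60.8% G and C, where the median of all promoters was 52.4%. The Sox6 windows below show where the letters recur in a member of the SOX trio itself, and the Foxa2 windows give a start with them and a start without, in a gene whose level differed between the groups. Sequences are written 5′ to 3′ along the transcribed strand, ending at the base before the start, with the motif in capitals.
Sox6 start at chr7:116031048-116031297, minus strand: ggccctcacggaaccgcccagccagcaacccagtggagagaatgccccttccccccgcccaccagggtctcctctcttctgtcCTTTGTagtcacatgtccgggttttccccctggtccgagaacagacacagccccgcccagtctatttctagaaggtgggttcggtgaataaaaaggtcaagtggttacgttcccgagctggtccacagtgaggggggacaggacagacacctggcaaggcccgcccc
Sox6 start at chr7:115824711-115824960, minus strand: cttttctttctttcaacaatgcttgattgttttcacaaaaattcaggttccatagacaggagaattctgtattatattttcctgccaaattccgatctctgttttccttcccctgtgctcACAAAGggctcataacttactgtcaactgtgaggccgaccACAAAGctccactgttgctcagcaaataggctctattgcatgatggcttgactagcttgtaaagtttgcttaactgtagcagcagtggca
Foxa2 start at chr2:148045465-148045714, minus strand: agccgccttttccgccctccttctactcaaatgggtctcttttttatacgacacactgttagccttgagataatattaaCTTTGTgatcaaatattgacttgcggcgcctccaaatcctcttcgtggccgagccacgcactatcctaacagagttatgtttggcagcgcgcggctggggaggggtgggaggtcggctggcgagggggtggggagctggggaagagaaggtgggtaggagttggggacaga
Foxa2 start at chr2:148046970-148047219, minus strand: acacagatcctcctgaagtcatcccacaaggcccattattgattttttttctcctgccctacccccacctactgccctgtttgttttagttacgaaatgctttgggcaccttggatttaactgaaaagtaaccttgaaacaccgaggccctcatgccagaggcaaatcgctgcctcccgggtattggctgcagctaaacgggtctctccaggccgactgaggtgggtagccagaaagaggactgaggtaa
The first base of the match lies at position -167 in the first Sox6 window, at -130 and -90 in the second, and at -171 in the first Foxa2 window, counted back from the start. These are matches of letters and not measured binding sites, and none of the 4 windows overlaps an annotated exon of GENCODE M21.

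Nkx3-2 separated the base from the vault with no overlap. It measured 6.42, 9.14 and 4.29 FPKM in the base, 0.926, 1.85 and 1.04 FPKM in the control vault and 1.35, 3.00 and 2.08 FPKM in the MCAGF8 vault. The lowest base library thus exceeded the highest library of either vault. The base mean of 6.61 ± 2.43 FPKM was 5.20 times the control vault mean of 1.27 ± 0.507 and 3.09 times the MCAGF8 mean of 2.14 ± 0.828 FPKM (SD, n = 3 each). Nkx3-2 was called as higher in the base than in the control vault (log2 difference 1.72, SE 0.31, adjusted p = 0.0342) and as lower in the MCAGF8 vault than in the base (-1.26, SE 0.31, adjusted p = 0.0524).

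Both calls were kept without base replicate 2 (1.48, adjusted p = 0.0402, and -1.03, adjusted p = 0.0571). The difference from the control vault was no longer called without control vault replicate 1 or 3 (adjusted p of 0.139 and 0.155), and that from the MCAGF8 vault without MCAGF8 replicate 1 or 3 or base replicate 1 (0.214, 0.141 and 0.109). Between the vaults Nkx3-2 differed by 0.46 (95% confidence interval -0.25 to 1.16, adjusted p = 0.969). Relative to Col2a1 the vault groups were close, with 2.48, 4.02 and 2.47 FPKM of Nkx3-2 per 1000 FPKM of Col2a1 in the control vault and 2.31, 2.62 and 1.87 in the MCAGF8 vault. Base replicates 1 and 3 held 39.4 and 16.0, and base replicate 2 held 3.99, which is within the control vault range. The gene lies on chromosome 5 from 41761483 to 41764501 on the minus strand.

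**Figure D3:**
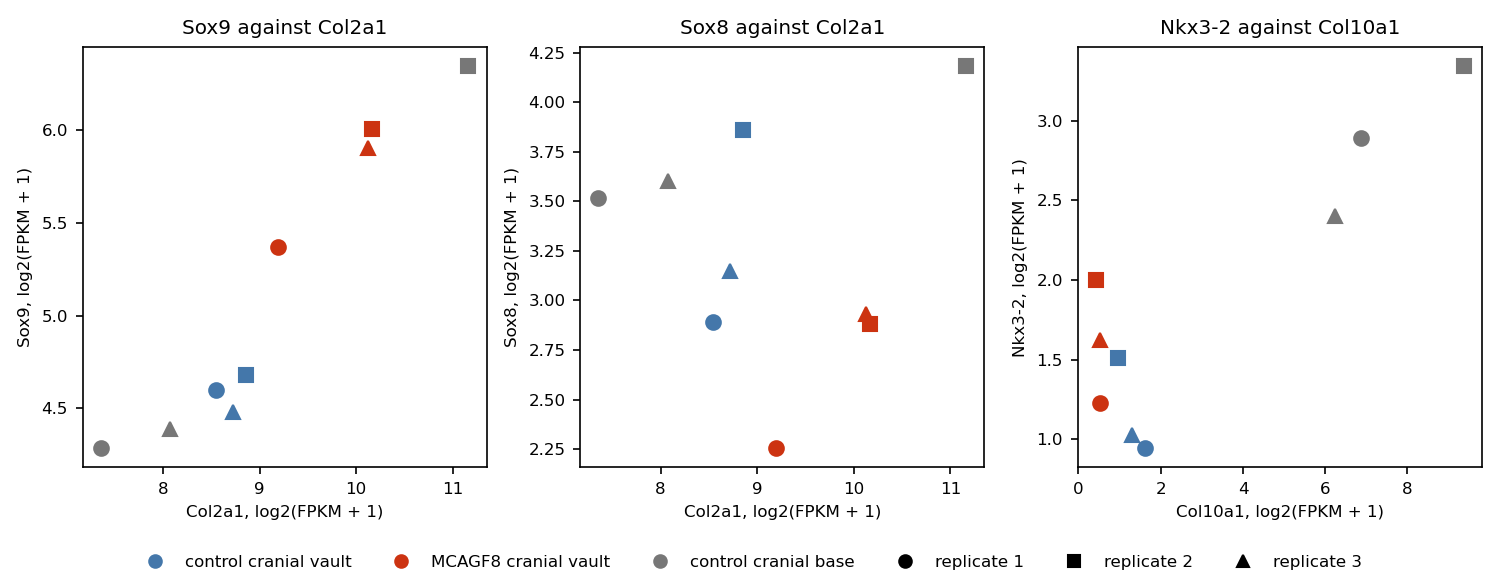
Levels in the 9 libraries as log2(FPKM + 1), with Sox9 against Col2a1 (left), Sox8 against Col2a1 (middle) and Nkx3-2 against Col10a1 (right), coloured by group and with the replicate number shown by the symbol. Sox9 and Col2a1 are both lowest in base replicate 1 and both highest in base replicate 2, Sox8 lies lowest in MCAGF8 replicate 1 (3.77 FPKM), and the 3 base libraries stand apart from all vault libraries in Nkx3-2 and Col10a1.

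Foxa2 was hardly detected in the control vault and present in every base library. Its levels were 0.284, 0.241 and 0.288 FPKM in the control vault, 0.622, 0.334 and 1.11 FPKM in the MCAGF8 vault and 2.31, 5.39 and 2.47 FPKM in the base. The groups did not overlap in any of the 3 comparisons. The base mean of 3.39 ± 1.73 FPKM was 12.5 times that of the control vault (0.270 ± 0.0257) and 4.92 times that of the MCAGF8 vault (0.690 ± 0.393; SD, n = 3 each).

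Foxa2 was called as higher in the base than in the control vault (log2 difference 1.72, SE 0.30, adjusted p = 0.0264) and as lower in the MCAGF8 vault than in the base (-1.34, SE 0.30, adjusted p = 0.0333). On the log2(FPKM + 1) scale such low levels give smaller differences than their ratios, and with a pseudocount of 0.01 the values were 3.49 and -2.33. Both calls were kept without base replicate 2 (1.42, adjusted p = 0.0178, and -1.03, adjusted p = 0.0243). The first was lost without control vault replicate 3 (adjusted p = 0.116) and the second without MCAGF8 replicate 1 or 2 (0.129 and 0.122). Between the vaults the difference was 0.39 (95% confidence interval -0.28 to 1.05, adjusted p = 0.969).

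Foxa2 is also a gene of endodermal and other epithelia, and epithelial transcripts were higher in the base. The summed FPKM of 9 genes of foregut, airway and pituitary epithelium was 165, 97.4 and 232 in base replicates 1, 2 and 3, 18.6 to 47.2 in the control vault and 22.8 to 34.0 in the MCAGF8 vault. Foxa1, the forkhead gene most closely related to Foxa2 and part of that list, measured 10.03, 0.328 and 12.8 FPKM in the base. It was thus low in base replicate 2, which held the most Foxa2, whereas the epithelial genes Epcam (41.3, 37.1 and 46.6 FPKM in the base, at most 12.5 in a vault library) and Krt18 (33.9, 27.3 and 74.2 FPKM, at most 16.6 in a vault library) were above the vaults in that library too. Nkx2-1, which defines lung and thyroid epithelium, was below 0.1 FPKM in every library, and between 0 and 3 of the 9 genes were at 0 in a library. The part of these transcripts and of T in the Foxa2 values was not tested. Foxa2 lies on chromosome 2 from 148042877 to 148046969 on the minus strand.

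Foxa3 was also highest in the base, without a call, while its vault means stood in the opposite order to those of Foxa2. It measured 2.83, 8.26 and 2.60 FPKM in the base, 0.861, 2.46 and 0.866 FPKM in the control vault and 0.251, 0.878 and 1.65 FPKM in the MCAGF8 vault. All base libraries exceeded all vault libraries, while the vault groups overlapped. The log2 difference was -1.45 (SE 0.44, 95% confidence interval -2.44 to -0.47) between the MCAGF8 vault and the base, where an adjusted p of 0.101 narrowly missed the threshold, and 1.14 (0.15 to 2.12, adjusted p = 0.293) between the base and the control vault. Without base replicate 2 these differences were -1.01 (adjusted p = 0.109) and 0.70 (adjusted p = 0.345). With the replicate number as a block and all 9 libraries the first of these was called (adjusted p = 0.0963). Between the vaults it was -0.32 (-1.30 to 0.67, adjusted p = 0.975). Foxa3 lies on chromosome 7 from 19013284 to 19023538 on the minus strand.

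Trps1 resembled the SOXD genes in that the base spread around the vault. It measured 10.3, 9.05 and 7.09 FPKM in the control vault, 14.52, 9.55 and 12.7 FPKM in the MCAGF8 vault and 7.45, 23.6 and 5.65 FPKM in the base. MCAGF8 replicate 2 fell within the control vault range. The difference between the vaults was 0.43 on the log2 scale (95% confidence interval -0.54 to 1.40, adjusted p = 0.969), that between the MCAGF8 vault and the base 0.23 (-0.74 to 1.20, adjusted p = 0.826), and that between the base and the control vault 0.19 (-0.78 to 1.16, adjusted p = 0.956). With base replicate 2 left out, Trps1 was called as higher in the MCAGF8 vault than in the base (0.80, adjusted p = 0.0675), and the base was below the control vault by -0.38 (adjusted p = 0.447). Trps1 is also long, with 13380 exonic bases, and the length trend was not removed in that fit. Trps1 spans chromosome 15 from 50654752 to 50890463 on the minus strand.

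**Figure D4:**
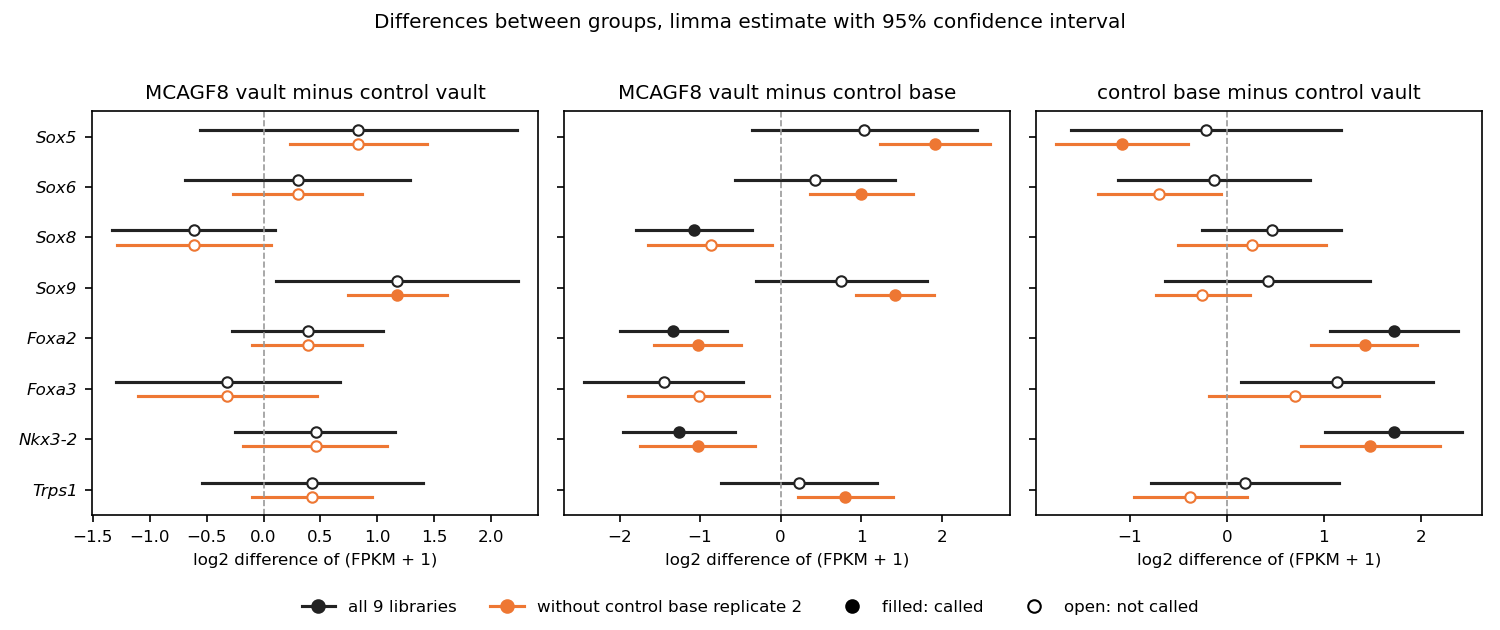
Log2 difference of FPKM + 1 for each factor in each of the 3 comparisons, as the limma estimate with its 95% confidence interval, for all 9 libraries (black) and without control base replicate 2 (orange), with filled points for called genes. With that library left out Sox9 is called between the vaults (1.17, adjusted p = 0.0446), and Sox5, Sox6, Sox9 and Trps1 are called as higher in the MCAGF8 vault than in the base, while Sox8 is no longer called.

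Across the 8 genes the median log2 difference was 0.41 between the MCAGF8 and control vaults, -0.42 between the MCAGF8 vault and the base and 0.44 between the base and the control vault, where the medians over all genes tested were -0.01, -0.07 and 0.07. Groups did not overlap for 3 of the 8 genes between the vaults (Sox5, Sox9 and Foxa2, all higher in the MCAGF8 vault), where 19.2% of all genes did not overlap. Between the MCAGF8 vault and the base 4 of the 8 did not overlap (Sox8, Foxa2, Foxa3 and Nkx3-2, all lower in the MCAGF8 vault), against 21.9% of all genes. Of the base and the control vault 3 did not overlap (Foxa2, Foxa3 and Nkx3-2, all higher in the base), against 15.5%. Leaving base replicate 2 out, the calls were 1 of 8 between the vaults, 6 of 8 between the MCAGF8 vault and the base (4 higher and 2 lower in the MCAGF8 vault) and 3 of 8 between the base and the control vault, against 1.23%, 24.5% and 7.06% of all genes. With another library left out, the count between the MCAGF8 vault and the base fell to 0 in the absence of MCAGF8 replicate 1 and to 1 in the absence of MCAGF8 replicate 2 or 3 or of base replicate 1, and that between the base and the control vault was 1 without control vault replicate 1 and 0 without control vault replicate 3. The shares of all genes called fell as well, to 2.99%, 4.09%, 4.44% and 7.37% without MCAGF8 replicates 1, 2 and 3 and base replicate 1 in the former, and to 1.02% and 0.705% without control vault replicates 1 and 3 in the latter. After each library was rescaled to a common sum, none of the 8 was called between the MCAGF8 vault and the base, where 8.58% of all genes were. None was called in either comparison with the base when only the 6 libraries compared were fitted, against 4.68% of all genes for the MCAGF8 vault and 0.577% for the control vault.

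The genes of the cartilage matrix, which the SOX trio is known to drive, showed a like dependence. The counts for this and the following lists stand against 0.604%, 8.39% and 3.06% of all genes called between the vaults, between the MCAGF8 vault and the base and between the base and the control vault. These shares were 1.23%, 24.5% and 7.06% without base replicate 2, and they ran from 0.0588% to 0.593%, from 2.99% to 7.37% and from 0.705% to 4.99% with any other library left out. Of 20 such genes none was called between the vaults and 16 were higher in the MCAGF8 vault (median log2 difference 0.51), with Matn4 alone below an unadjusted p of 0.05 and called without base replicate 2 (1.42, adjusted p = 0.0398). Between the MCAGF8 vault and the base 4 were called, Matn4 as higher (2.41, adjusted p = 0.0406) and Snorc (-3.85), Scrg1 (-3.21) and Comp (-3.03) as lower in the MCAGF8 vault. The count without base replicate 2 was 15 (against 24.5% of all genes), of which 12 were higher in the MCAGF8 vault, among them Col2a1 (2.11, adjusted p = 0.00745) and Acan (2.16, adjusted p = 0.0107). Relative to the control vault Snorc (2.84, adjusted p = 0.0214) and Scrg1 (2.54, adjusted p = 0.0466) were called as higher in the base. Snorc and Scrg1 encode small proteins made by chondrocytes, and like Nkx3-2 they were highest in the base whether or not replicate 2 was counted. The part of glial and other transcripts in the Snorc and Scrg1 values was not tested. The count of 4 became 2 without MCAGF8 replicate 1 or 2, and the count of 2 became 1 and 0 without control vault replicate 1 or 3 and 5 without base replicate 2.

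Of 8 genes that mark enlarged chondrocytes, several of them shared with osteoblasts, 3 were called between the vaults, all lower in the MCAGF8 vault, namely the bone matrix genes Ibsp (-5.81, adjusted p = 0.0146) and Spp1 (-5.01, adjusted p = 0.0158) and the channel gene Panx3 (-2.94, adjusted p = 0.0316). Against the base 6 were called, all lower in the MCAGF8 vault, led by Col10a1 (-7.00, adjusted p = 0.00171), followed by Ibsp (-3.81), Spp1 (-2.87), Panx3 (-2.79) and the hedgehog ligand gene Ihh (-2.62). Relative to the control vault Col10a1 was the gene called in the base (6.20, adjusted p = 0.00386). The count of 3 between the vaults became 2 without any 1 of the MCAGF8 libraries or without control vault replicate 1 or 3, and the count of 1 between the base and the control vault became 2 without MCAGF8 replicate 2. Foxa2 and Foxa3, which are known to act at this stage, had their highest levels in the same 3 base libraries. In the vaults Col10a1 did not exceed 2.05 FPKM. The osteoblast factor gene Sp7, outside this list, averaged 94.3 ± 34.8 FPKM in the control and 18.1 ± 2.35 FPKM in the MCAGF8 vault (SD, n = 3 each). The part of osteoblasts in the Ibsp, Spp1 and Panx3 values was not tested.

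Among 15 other SOX genes, 12 passed the level filter and none was called between the vaults (1 without control vault replicate 2). Against the base 3 were called as lower in the MCAGF8 vault, namely Sox2 (-3.42, adjusted p = 0.0108) and Sox21 (-1.44, adjusted p = 0.0465), which mark neural and epithelial progenitors, and the SOXE gene Sox10 of glia and neural crest (-3.06, adjusted p = 0.0107). Sox10 was also called as higher in the base than in the control vault (2.09, adjusted p = 0.0758). It measured 13.1, 48.3 and 44.2 FPKM in the base, 9.13, 3.67 and 7.51 FPKM in the control vault and 1.89, 3.05 and 3.65 FPKM in the MCAGF8 vault. Sox10 and Sox8 thus had the same order of group means, whereas Sox9 had its highest mean in the MCAGF8 vault. On leaving out base replicate 2 the call of Sox10 between the base and the control vault was lost, while Sox2 (2.33, adjusted p = 0.0796) and Sox21 (1.30, adjusted p = 0.087) were called there. The 3 calls against the MCAGF8 vault became 2 without any 1 of the MCAGF8 libraries or without base replicate 1 or 3. With any other single library left out, except base replicate 1, no gene of this list was called between the base and the control vault.

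Of 20 further regulators of cartilage, Mef2c, a factor that drives chondrocyte enlargement, was the gene called between the vaults (-1.19 in the MCAGF8 vault, adjusted p = 0.0768), a call lost on leaving out any library other than base replicate 2. The authors count Mef2c among regulators that promote bone differentiation. Summed FPKM of 9 osteoblast genes was 1370 to 3357 in the control vault and 140 to 288 in the MCAGF8 vault. Skeletal muscle sums differed between the vaults as well, and the part of either tissue in the Mef2c values was not tested. Against the base 8 of the 20 were called, 7 of them lower in the MCAGF8 vault, with the largest differences in the mesenchymal homeobox gene Barx1 (-4.37), Pax9 (-3.18), Ihh (-2.62), Foxa1 (-2.54) and Shh (-1.83). Foxa1 and Shh passed the level filter only through the base, with means of 7.72 and 3.17 FPKM there. Their means in either vault group were at most 0.435 and 0.142 FPKM. Pax9 is known to act upstream of Nkx3-2 in sclerotome, and Shh to induce it there. Between the base and the control vault Pax9 (2.59, adjusted p = 0.0466), Shh (1.92, adjusted p = 0.0105) and Pthlh (1.20, adjusted p = 0.0938) were called as higher and Runx2, the osteoblast factor (-0.91, adjusted p = 0.0898), as lower in the base. With single libraries left out these counts ran from 4 (without MCAGF8 replicate 1 or 3) to 14 (without base replicate 2, against 24.5% of all genes) against the MCAGF8 vault and from 1 (without control vault replicate 2 or 3) to 6 (without base replicate 2) against the control vault, where it was 2 without control vault replicate 1, base replicate 3 or any 1 of the MCAGF8 libraries. Wwp2, whose locus hosts a microRNA of cartilage and which is known as a Sox9 target, was not called in any of these comparisons and measured 62.2, 64.0 and 50.0 FPKM in the control vault, 88.7, 107 and 142 FPKM in the MCAGF8 vault and 37.7, 212 and 55.0 FPKM in the base, with no overlap between the vaults. Without base replicate 2 it was called as higher in the MCAGF8 vault than in the base (1.26, adjusted p = 0.0147). It was taken up after its values had been seen.

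The genes whose pattern was most like that of each factor were sought among those with a mean of at least 5 FPKM, by Pearson's r of log2(FPKM + 1) over the 8 libraries other than base replicate 2. Since these libraries fall into 3 groups, r includes the differences between groups. For Sox9 the 3 closest were Apobec3 (r = 0.987), Mcur1 (0.980) and Stk32b (0.978), which over all 9 libraries had r of 0.711, 0.557 and 0.928. For Sox8 they were Inka2 (0.975), Npepl1 (0.974) and Klf14 (0.963), with 0.861, 0.826 and 0.687 over 9. Sox5 was closest to Tram2 (0.988), Lrp1 (0.978) and Aldh6a1 (0.976), with 0.979, 0.890 and 0.970 over 9. Sox6 was closest to Maco1 (0.994), Fgfr2 (0.987) and Thrap3 (0.986), with 0.872, 0.921 and 0.961 over 9. These neighbours were picked as the highest among 12933 genes by r over the 8 libraries, so a lower r over 9 follows in part from that choice. Differences between the factors in this fall were not tested.

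Foxa2 was closest to the epithelial genes Cldn1 (0.975) and Krt19 (0.970) and to Asb13 (0.947), with r of 0.836, 0.660 and 0.906 over 9 libraries. Foxa3 was closest to Smtnl2 (0.988), the cartilage gene Comp (0.963) and Hopx (0.953), with 0.776, 0.985 and 0.456 over 9. Of the 3 neighbours of Foxa3, which were picked in the same way, only Comp had a higher r over 9 libraries than over 8. Nkx3-2 was closest to Sh3gl3 (0.986), Mgst1 (0.966) and Pir (0.962), with 0.581, 0.560 and 0.341 over 9. Trps1 was closest to Slc5a3 (0.982), Pold1 (0.959) and Zfp558 (0.949), with 0.788, 0.677 and 0.818 over 9.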

How the data were processed

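The 9 poly(A) RNA libraries, each from 3 pooled E14.5 tissue samples, were sequenced by the authors as single-end reads, mapped with gSNAP and quantified with Cufflinks. The authors deposited 1 table of FPKM values per gene and library. Their versions, genome build, annotation and strand setting are not given in the sources consulted. Of 43611 rows, 63 repeated an identifier and were summed. A placeholder (999999999) stood in 17 cells of 9 genes, none of them described here, and these genes were left out whole. Genome positions and exon lengths came from GENCODE M21, in which 42375 identifiers were found, and promoter sequences from RefSeq.

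Genes with a mean of at least 0.5 FPKM were fitted on log2(FPKM + 1) over all 9 libraries with limma 3.58.1 (R 4.3.3; trended prior variance), with Benjamini-Hochberg adjustment over all genes of a comparison. The fit was tested on simulated data in which each gene had the same normal spread in all groups. That test did not cover a group more variable than the others, as the base was. Calls required an unadjusted p below 0.05 and an adjusted p below 0.1. Pools are the replicates, and p-values measure the spread between pools. In each gene list every called gene was named, or the 5 with the largest differences where more were called. The factors and gene lists were chosen with earlier results of these data known. Alternatives changed the pseudocount (0.1 or 0.01), the filter (none, or 5 FPKM), the scaling (to a sum of 1000000, or quantiles), the libraries fitted, the threshold and the model, and removed a length trend, the last chosen after seeing the data.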

Additional observations from a re-analysis of the deposited data

How the results depend on the processing

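Between the vaults none of the factors and none of the cartilage matrix genes was called, and 1 of each was called with the 6 vault libraries alone and at an unadjusted p under 0.05. The shares of all genes called in these alternatives were 0.93% and 6.34%. Leaving out single libraries gave 0 to 1 for both lists. Between the MCAGF8 vault and the base the 3 calls among the factors became 1 without a filter, 0 with a mean of at least 5 FPKM (5 factors tested), 0 after rescaling to a common sum, 1 after quantile normalization, 0 with 6 libraries, 1 in the model without moderation, 1 at an adjusted p under 0.05 and 1 with the length trend removed, and 0 to 6 with single libraries left out. Of all genes, 5.14% were called there without a filter, 6.45% with a mean of at least 5 FPKM and 8.58% after rescaling. The share was 10.5% after quantile normalization, 4.68% with 6 libraries and 4.64% without moderation. At an adjusted p under 0.05 it was 5.03%, and with the length trend removed 12.2%. The 4 cartilage matrix calls became 2 with 6 libraries and 2 without moderation, and 2 to 15 with single libraries left out. Between the base and the control vault the 2 factors called became 0 with a mean of at least 5 FPKM, 0 with 6 libraries and 1 without moderation, and 0 to 3 on leaving out single libraries, and the 2 cartilage matrix genes became 1, 0 and, at an unadjusted p under 0.05, 4, with 0 to 5 on leaving out. All genes were called here at 2.25% with a mean of at least 5 FPKM and 0.577% with 6 libraries. They were called at 1.37% without moderation and 12.8% at an unadjusted p under 0.05. Among the factors' own differences directions changed only on leaving out libraries. In the MCAGF8 vault against the base, Sox6 was -0.02 without base replicate 1 (1.00 without base replicate 2), and Trps1 -0.14 without base replicate 3 (0.80 without replicate 2). In the base against the control vault, single libraries left out gave -1.08 to 0.35 for Sox5 (reversed without base replicate 1, and at 0.10 without base replicate 3), -0.70 to 0.33 for Sox6 (reversed at 0.33 without base replicate 1 and at 0.01 without control vault replicate 1), -0.25 to 0.78 for Sox9 and -0.38 to 0.57 for Trps1 (both reversed without base replicate 2). The cause of these changes was not tested.

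Same-numbered libraries did not deviate together (r from -0.549 to 0.37), nor did every library correlate best with its own number. The deviations were taken from means of 3 libraries, so they cannot show whether same-numbered pools shared embryos. With a replicate block the factors called were 0, 4 and 2 in the 3 comparisons. Over all genes 19, 918 and 234 were called (0.102%, 4.91% and 1.25%), against 113, 1571 and 573. Rescaling moved the median of all genes by 0.14 and 0.18 in the MCAGF8 comparisons. Calls between the MCAGF8 vault and the base comprised 558 genes higher in the former and 1013 lower, against 776 and 829 after rescaling and 1153 and 810 after quantile normalization. Between the base and the control vault 347 were higher and 226 lower in the base, against 236 and 390 after quantile normalization. Groups of 3 pools and unknown depth limit the precision of all values.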
